A study of Mus musculus with 12 samples.

Results

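The SOX genes encode transcription factors that share an HMG box, a DNA-binding domain first known from the sex-determining gene Sry. Here 10 of them were followed (Sox1, Sox2, Sox3, Sox4, Sox11, Sox12, Sox13, Sox15, Sox17 and Sox21), found by gene name among 23136 named loci, with 1 locus for each. Their RNA was measured in 12 libraries of mouse C57 Bl/6J pluripotent cells in 4 groups of 3 replicates. EpiLC are wild-type epiblast-like cells, made from ESC on fibronectin. Their 48 h of induction used Activin A at 20 ng/ml, the growth factor Fgf2 at 12 ng/ml and 1% of the serum replacement KOSR. Sirt1KO Otx2KD are ESC with a Sirt1 knockout in which Otx2 is also knocked down, by a means that the labels do not state. Sirt1KO are ESC with the Sirt1 knockout alone. Wild-type ESC carry neither change. The 3 ESC groups grew on gelatin in serum-free medium that held CHIR99021 (3 uM), which blocks GSK3, PD0325901 (1 uM), which blocks MEK, and the cytokine LIF, so the EpiLC state and its medium cannot be told apart. Whether a genotype stands for 1 clone or several is not stated in the labels, nor whether replicates were separate cultures, so p-values measure only the spread between these libraries, which may be technical. The series asks how the change in RNA from naive ESC to primed-like EpiLC compares with the changes after Sirt1 loss and Otx2 knockdown.

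SOX proteins bend DNA at short A and T rich sites and usually act with a partner factor. In pluripotent cells Sox2 pairs with Oct4, encoded by Pou5f1, on composite enhancer elements of genes such as Nanog and Fgf4. Sox1 and Sox3, which with Sox2 form the SoxB1 subgroup, mark neural progenitors, and Sox3 is also expressed in the epiblast after implantation. The SoxC genes Sox4, Sox11 and Sox12 encode activators best known from neuronal and mesenchymal progenitors.

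The deposited values are FPKM, fragments scaled by transcript length and by the number mapped, which allow levels to be compared between genes. Read counts were not used here because the files hold FPKM alone. The values of the lowest loci put relative depth between 0.767 (Sirt1KO Otx2KD replicate 2) and 1.33 (EpiLC replicate 2) times that of wild-type ESC replicate 1. The primed markers, Otx2 among them, summed to 1156 to 1190.3 FPKM in EpiLC and to 55.0 to 59.4 FPKM in wild-type ESC. They summed to 71.3 to 74.6 FPKM in Sirt1KO Otx2KD and to 301 to 428 FPKM in Sirt1KO. The naive markers summed to 325 to 326 FPKM in EpiLC and to 1201 to 1254 FPKM in wild-type ESC. Their sums were 1220 to 1232 FPKM in Sirt1KO Otx2KD and 900 to 1029 FPKM in Sirt1KO. Sirt1, the deacetylase gene, averaged 15.5 ± 0.196 FPKM in Sirt1KO and 25.8 ± 0.412 FPKM in wild-type ESC (SD, n = 3 each). Its value covers the whole gene, and the labels do not say which part was deleted. Otx2, a homeobox factor of the early primed epiblast, stood at 6.33, 6.27 and 5.61 FPKM in Sirt1KO Otx2KD, against 34.2, 24.6 and 22.2 FPKM in Sirt1KO. It was 7.60, 6.85 and 7.68 FPKM in wild-type ESC. Replicate 1 of Sirt1KO thus held the highest Otx2 of its group. It also held the highest Sox1, Sox3, Sox4, Sox12 and Sox13 of the group, and the lowest Sox2 and Sox15. Fibroblast and feeder cell markers (11 genes) summed to 81.2 to 87.6 FPKM in EpiLC, 278 to 283 FPKM in Sirt1KO Otx2KD, 14.9 to 19.1 FPKM in Sirt1KO and 142 to 165 FPKM in wild-type ESC, and 0 of them were listed at 0 throughout a group. Trophoblast markers (9 genes, Tpbpa at 0 throughout) summed to 19.1 to 22.9 FPKM in EpiLC, 65.3 to 66.1 FPKM in Sirt1KO Otx2KD, 59.9 to 61.7 FPKM in Sirt1KO and 84.8 to 89.98 FPKM in wild-type ESC. Tfap2c, which germ cells and ESC also express, averaged 55.2 FPKM of this in Sirt1KO Otx2KD, 27.2 FPKM in Sirt1KO and 80.1 FPKM in wild-type ESC, and Krt18 averaged 20.8 FPKM in Sirt1KO and 2.59 FPKM in wild-type ESC. In these bulk libraries, fewer cells of a type and less RNA per cell cannot be told apart.

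Sox2 was the most abundant SOX transcript in every group, and the ranking below it changed. In EpiLC, Sox4, Sox12 and Sox11 came next, with means of 26.1, 25.3 and 22.3 FPKM, and the libraries of neighbours in this trio overlapped. In Sirt1KO Otx2KD, Sox15 (18.8 FPKM) came second, clear of Sox12 (8.70 FPKM) and Sox13 (8.18 FPKM), which overlapped. In Sirt1KO the order below Sox2 was Sox12 (12.7 FPKM), Sox11 (10.1 FPKM) and Sox15 (10.1 FPKM), of which the last pair overlapped. In wild-type ESC, Sox15 (47.5 FPKM) also came second, followed by Sox13 (11.2 FPKM), Sox21 (9.78 FPKM) and Sox12 (9.57 FPKM), whose neighbours overlapped. At the low end, Sox17 had the lowest mean in all 4 groups.

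**Figure D1:**
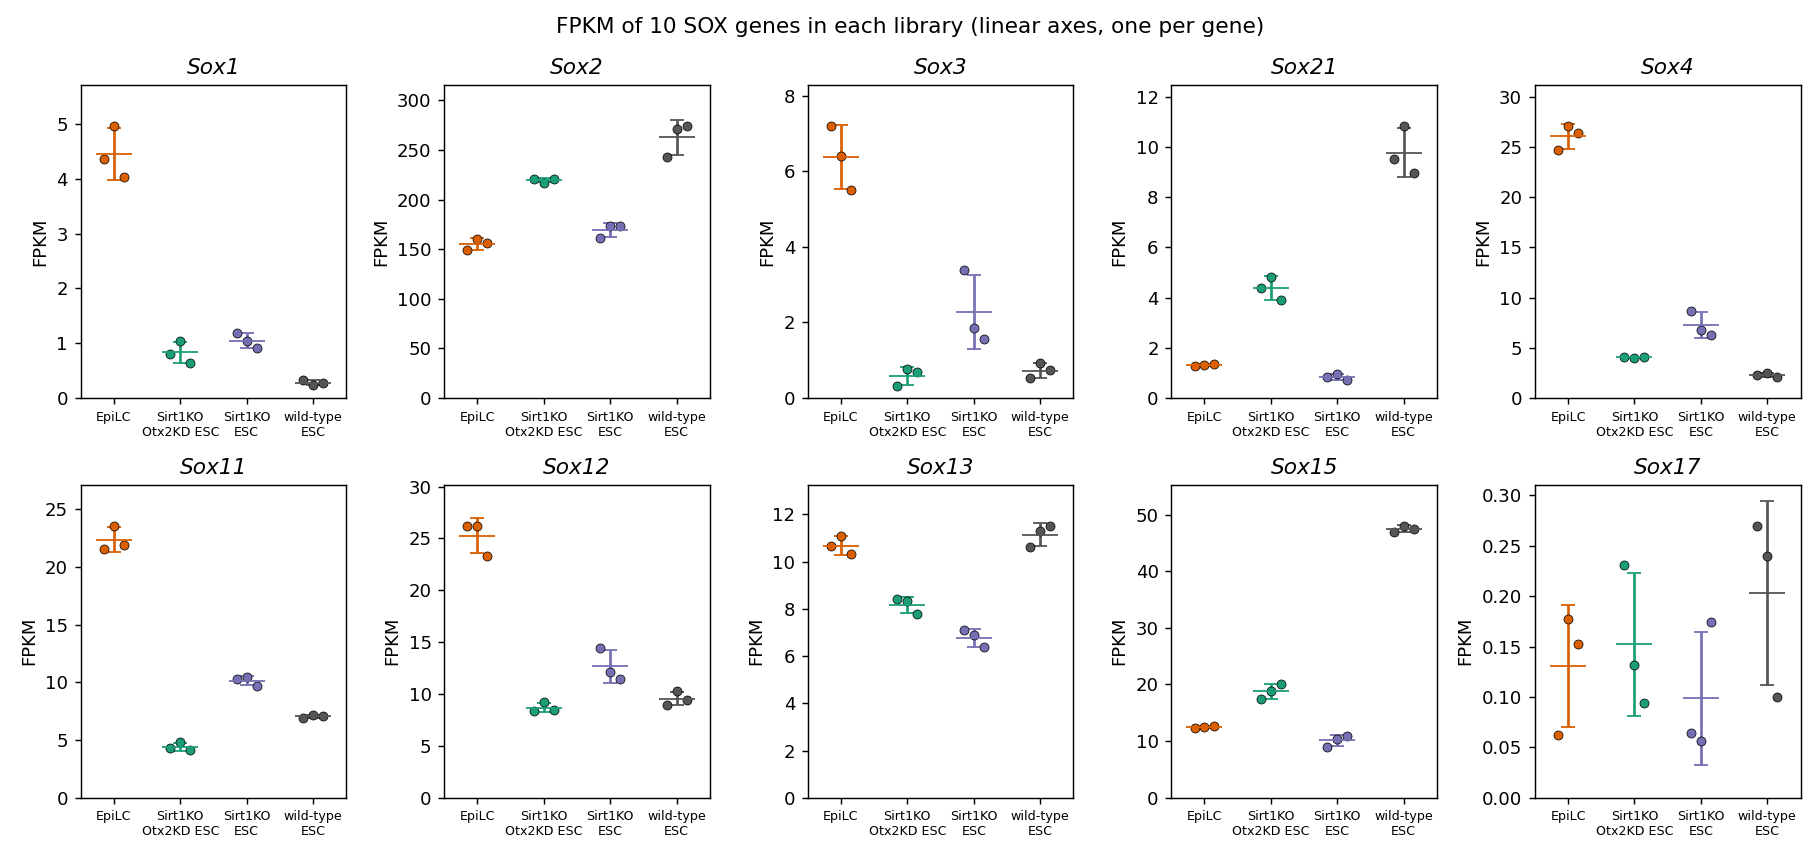
FPKM of each SOX gene (vertical axes, linear, one scale per gene) in the 3 libraries of EpiLC, Sirt1KO Otx2KD ESC, Sirt1KO ESC and wild-type ESC. Points are libraries, horizontal lines are means and bars are ± SD; Sox4 lies at 24.7 to 27.1 FPKM in EpiLC and at 2.12 to 2.48 FPKM in wild-type ESC, while Sox15 lies at 12.2 to 12.6 FPKM in EpiLC and at 46.9 to 48.1 FPKM in wild-type ESC.

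The 3 SoxC genes were highest in EpiLC, intermediate in Sirt1KO and lower again after Otx2 knockdown. Because they moved together, the 250 bases before their start sites are shown, with those of Sox15 and Sox21, which were highest in wild-type ESC. These are RefSeq windows on GRCm38.p6, 5′ to 3′ along the gene. They are Sox4 at chr13:28953700-28953949 (minus strand), Sox11 at chr12:27342719-27342968 (minus strand), Sox12 at chr2:152398047-152398296 (minus strand), Sox15 at chr11:69654787-69655036 (plus strand) and Sox21 at chr14:118237031-118237280 (minus strand). Capitals mark the CCAAT box (CCAAT), the GC box (GGGCGG) and the octamer bound by POU factors (ATGCAAAT) on either strand; GC boxes that overlap form 1 run.
Sox4: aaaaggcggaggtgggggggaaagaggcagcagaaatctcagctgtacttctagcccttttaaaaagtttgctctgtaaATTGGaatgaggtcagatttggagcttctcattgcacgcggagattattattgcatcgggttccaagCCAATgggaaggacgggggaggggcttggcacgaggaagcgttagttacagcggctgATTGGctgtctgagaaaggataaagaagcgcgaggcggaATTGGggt
Sox11: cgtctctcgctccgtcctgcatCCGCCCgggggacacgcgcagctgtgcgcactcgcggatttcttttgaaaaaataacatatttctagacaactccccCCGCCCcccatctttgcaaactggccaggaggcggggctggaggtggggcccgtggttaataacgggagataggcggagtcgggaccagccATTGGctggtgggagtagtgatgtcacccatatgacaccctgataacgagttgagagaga
Sox12: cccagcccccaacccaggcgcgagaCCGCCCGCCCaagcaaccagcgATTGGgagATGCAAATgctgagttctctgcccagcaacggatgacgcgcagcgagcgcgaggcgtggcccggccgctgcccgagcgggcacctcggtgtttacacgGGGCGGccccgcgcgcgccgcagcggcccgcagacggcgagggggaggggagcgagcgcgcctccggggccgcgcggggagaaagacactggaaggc
Sox15: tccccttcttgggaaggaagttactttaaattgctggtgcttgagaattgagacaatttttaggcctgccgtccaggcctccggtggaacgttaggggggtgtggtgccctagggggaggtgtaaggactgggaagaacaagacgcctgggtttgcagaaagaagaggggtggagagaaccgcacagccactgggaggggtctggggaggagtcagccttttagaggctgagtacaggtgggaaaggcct
Sox21: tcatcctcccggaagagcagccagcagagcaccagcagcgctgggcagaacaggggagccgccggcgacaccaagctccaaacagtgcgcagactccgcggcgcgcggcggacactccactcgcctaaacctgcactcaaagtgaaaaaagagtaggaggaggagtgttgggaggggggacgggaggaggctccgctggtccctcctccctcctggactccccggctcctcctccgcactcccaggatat

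CCAAT letters were found in the windows of Sox4 (4 matches), Sox11 (1), Sox12 (1), Sox1 (1) and Sox2 (1), and in none of Sox13, Sox15 and Sox21. Of all 32841 RefSeq windows of this length, 33.9% hold them on either strand. GC box letters were in Sox1, Sox2, Sox11 and Sox12 (32.7% of all windows). Sox12 was the only one of the 8 members matched by name with the octamer, at positions -195 to -188 from its start site, against 1.60% of all windows. The letters TAATCC, which homeobox factors of the OTX class bind, were in 0 of the 8 and in 6.25% of all windows. The SOX core ACAATG (10.7% of all windows) and the TATA box TATAAA (12.4%) were also in 0 of the 8, and ACAAAG, shared by TCF and SOX factors (16.5%), was in Sox2 alone. All were searched on both strands. Sox15 had 5 CpG and 55.6% G and C in its window and Sox21 had 17 CpG and 65.2%. The SoxC genes varied, with 11 CpG and 50.8% for Sox4, 17 CpG and 58.0% for Sox11 and 35 CpG and 74.4% for Sox12. Medians were 22 CpG and 68.2% over the 8 members, beside 6 CpG and 52.4% over all windows. Windows for Sox3 and Sox17 were not used here. A match describes letters and not a binding site.

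Sox4, which acts in progenitors of several lineages, had 24.7, 27.1 and 26.4 FPKM in EpiLC, against 2.29, 2.48 and 2.12 FPKM in wild-type ESC, an 11.3-fold ratio of means. It had 4.09, 4.02 and 4.08 FPKM in Sirt1KO Otx2KD, against 8.70, 6.77 and 6.30 FPKM in Sirt1KO. No library of one group overlapped another group, and Sirt1KO replicate 1 was the highest of its group. On the log2(FPKM + 1) scale, which understates differences of low genes, Sox4 rose by 3.04 ± 0.09 in EpiLC (SE, limma, Benjamini-Hochberg adjusted p = 2.23e-12). Sirt1KO also exceeded wild-type ESC (log2 1.31 ± 0.09, adjusted p = 2.00e-08). Sirt1KO Otx2KD lay below Sirt1KO (log2 -0.70 ± 0.09, adjusted p = 1.61e-05) and still above wild-type ESC (0.62 ± 0.09, adjusted p = 5.97e-05). Its locus (XLOC_006397) spans chromosome 13, 29040794 to 29045964 on mm9, the build of the files.

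Sox11, whose protein is closely related to that of Sox4, showed the same order except at its low end. EpiLC libraries held 21.5, 23.6 and 21.9 FPKM, against 6.89, 7.14 and 7.11 FPKM in wild-type ESC. Sirt1KO Otx2KD libraries held 4.30, 4.80 and 4.14 FPKM, against 10.3, 10.4 and 9.70 FPKM in Sirt1KO, so the knockdown group was the lowest of the 4 with no overlap. Sox11 rose in EpiLC (log2 1.54 ± 0.06, adjusted p = 3.37e-11) and in Sirt1KO (0.47 ± 0.06, adjusted p = 1.17e-05). It fell in Sirt1KO Otx2KD against Sirt1KO (log2 -1.04 ± 0.06, adjusted p = 6.00e-09), and against wild-type ESC as well (-0.57 ± 0.06, adjusted p = 2.95e-06). The Sox11 locus (XLOC_005373) is on chromosome 12, 28019133 to 28027583.

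Sox12, the third SoxC gene and a weaker activator in mouse than its relatives, stood at 26.2, 26.2 and 23.3 FPKM in EpiLC, against 8.99, 10.3 and 9.41 FPKM in wild-type ESC. Sirt1KO Otx2KD libraries had 8.41, 9.20 and 8.49 FPKM, against 14.4, 12.2 and 11.4 FPKM in Sirt1KO. The knockdown group overlapped wild-type ESC, while EpiLC and Sirt1KO did not. The log2 difference was 1.31 ± 0.08 in EpiLC (adjusted p = 3.03e-09) and 0.37 ± 0.08 in Sirt1KO (adjusted p = 0.00111). Sirt1KO Otx2KD fell against Sirt1KO (log2 -0.49 ± 0.08, adjusted p = 0.000122). Against wild-type ESC its difference of -0.12 did not pass (adjusted p = 0.215, 95% interval -0.30 to 0.05). The Sox12 locus (XLOC_014547) is on chromosome 2, 152219348 to 152223782.

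Among the SoxB1 genes, Sox2 moved against its relatives: it was lower in EpiLC, where Sox1 and Sox3 were higher. Sox2 had 149, 161 and 156 FPKM in EpiLC, against 243, 272 and 274 FPKM in wild-type ESC. It had 221, 217 and 220.4 FPKM in Sirt1KO Otx2KD, against 162, 174 and 173 FPKM in Sirt1KO. The 4 groups did not overlap. The mean was 0.591 times that of wild-type ESC in EpiLC (log2 -0.75 ± 0.05, adjusted p = 3.22e-09) and 0.644 times in Sirt1KO (-0.63 ± 0.05, adjusted p = 3.87e-08). Sox2 was higher in Sirt1KO Otx2KD than in Sirt1KO (log2 0.37 ± 0.05, adjusted p = 1.02e-05) and lower there than in wild-type ESC (-0.26 ± 0.05, adjusted p = 0.000355). The interval deposited for Sox2 (XLOC_015191, chromosome 3, 34459303 to 34576915) is shared with a separate locus for its overlapping non-coding transcript, listed as Mir1897,Sox2ot. That locus averaged 0.298 FPKM in EpiLC, 0.496 in Sirt1KO Otx2KD, 0.146 in Sirt1KO and 0.451 in wild-type ESC, far under Sox2. How reads in the shared interval were divided, and whether counting used strand, is not stated.

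Sox1, a marker of early neural plate, was close to the lower limit of the measurements in ESC. It had 4.36, 4.97 and 4.04 FPKM in EpiLC, against 0.335, 0.235 and 0.279 FPKM in wild-type ESC, a 15.7-fold ratio of means. Sirt1KO Otx2KD had 0.804, 1.04 and 0.646 FPKM and Sirt1KO 1.18, 1.04 and 0.912 FPKM, and these 2 groups overlapped. Sox1 rose in EpiLC by log2 2.08 ± 0.10 (adjusted p = 2.65e-10), or 3.57 with a pseudocount of 0.1. The locus (XLOC_023663, 12385771 to 12436732) lies on chromosome 8, where the median of all tested loci lay above wild-type ESC by log2 0.40 for EpiLC, by 0.36 for Sirt1KO Otx2KD and by 0.46 for Sirt1KO. In Sirt1KO the difference of Sox1 was 0.67 ± 0.10 (adjusted p = 5.02e-05) but 0.21 with chromosome medians removed, which did not pass (adjusted p = 0.0862). In Sirt1KO Otx2KD it was 0.51 ± 0.10 against wild-type ESC (adjusted p = 0.000782) and 0.13 with chromosome medians removed (adjusted p = 0.307). With a pseudocount of 0.1 these differences from wild-type ESC were 1.58 in Sirt1KO and 1.27 in Sirt1KO Otx2KD. Against Sirt1KO, Sirt1KO Otx2KD differed by -0.16 ± 0.10, which did not pass (adjusted p = 0.181), while -0.27 under quantile normalization passed (adjusted p = 0.0293). An overlapping locus, Gm5607, was listed at 0 in all wild-type ESC libraries and reached 0.0609 FPKM at most in EpiLC.

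Sox3, an X-linked SoxB1 gene of epiblast and neural progenitors, had 7.20, 6.41 and 5.50 FPKM in EpiLC, against 0.531, 0.915 and 0.732 FPKM in wild-type ESC. It had 0.323, 0.761 and 0.689 FPKM in Sirt1KO Otx2KD, against 3.39, 1.86 and 1.56 FPKM in Sirt1KO. Replicate 1 stood 1.82 times over the next Sirt1KO library, and Sirt1KO Otx2KD overlapped wild-type ESC. Fgf5, a growth factor gene of the primed epiblast, was likewise highest in Sirt1KO replicate 1 (4.35, 2.30 and 2.41 FPKM); the part of that library's state in the result was not tested. Sox3 rose in EpiLC by log2 2.09 ± 0.18 (adjusted p = 1.91e-07). In Sirt1KO it rose by 0.89 ± 0.18 (adjusted p = 0.000762), and by 0.66 without Sirt1KO replicate 1 (adjusted p = 0.00161). It fell in Sirt1KO Otx2KD against Sirt1KO by 1.01 ± 0.18 on the log2 scale (adjusted p = 0.000311). With a pseudocount of 0.1 the differences were 1.47 in Sirt1KO against wild-type ESC and -1.77 in Sirt1KO Otx2KD against Sirt1KO. Sirt1KO Otx2KD did not pass against wild-type ESC (log2 -0.12 ± 0.18, adjusted p = 0.596, 95% interval -0.52 to 0.27). The locus (XLOC_027204) is on chromosome X, 58144541 to 58146605.

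Like Sox2, Sox15 and Sox21 were highest in wild-type ESC. Sox15, the SoxG gene, binds the same DNA elements as Sox2 and is expressed in mouse ESC. It had 12.2, 12.5 and 12.6 FPKM in EpiLC, against 46.9, 48.1 and 47.5 FPKM in wild-type ESC. It had 17.5, 18.8 and 20.1 FPKM in Sirt1KO Otx2KD, against 9.04, 10.4 and 10.9 FPKM in Sirt1KO, and the 4 groups did not overlap. Sox15 fell in EpiLC (log2 -1.85 ± 0.06, adjusted p = 7.99e-12) and in Sirt1KO (-2.13 ± 0.06, adjusted p = 6.71e-12). It was higher in Sirt1KO Otx2KD than in Sirt1KO (log2 0.83 ± 0.06, adjusted p = 8.17e-08) and lower there than in wild-type ESC (-1.29 ± 0.06, adjusted p = 2.30e-09). Its chromosome, 11, had a median log2 difference from wild-type ESC over all tested loci of -0.46 for EpiLC, -0.39 for Sirt1KO Otx2KD and -0.49 for Sirt1KO. With chromosome medians removed Sox15 still passed, at -1.38 for EpiLC, -0.89 for Sirt1KO Otx2KD and -1.64 for Sirt1KO. The locus (XLOC_003179, 69468506 to 69476144) shares its interval with Mpdu1, a gene of dolichol sugar use. In GENCODE the ends of these genes overlap on opposite strands, and reads there cannot be told apart without a stated strand setting. Mpdu1 averaged 51.3 FPKM in EpiLC, 65.9 in Sirt1KO Otx2KD, 51.4 in Sirt1KO and 118 in wild-type ESC.

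Sox21, a SoxB2 gene whose protein represses targets that SoxB1 proteins activate, had 1.28, 1.32 and 1.36 FPKM in EpiLC, against 9.51, 10.8 and 8.97 FPKM in wild-type ESC. Sirt1KO Otx2KD had 4.39, 4.84 and 3.90 FPKM, against 0.840, 0.966 and 0.712 FPKM in Sirt1KO. The groups did not overlap, and Sirt1KO lay lowest. Sox21 fell in EpiLC (log2 -2.21 ± 0.09, adjusted p = 4.89e-11) and in Sirt1KO (-2.55 ± 0.09, adjusted p = 3.30e-11). Sirt1KO Otx2KD was 5.22-fold over Sirt1KO by means (log2 1.55 ± 0.09, adjusted p = 6.44e-09) and below wild-type ESC (-1.002 ± 0.09, adjusted p = 6.77e-07). The fibroblast and feeder markers were likewise lowest in Sirt1KO, but highest in Sirt1KO Otx2KD, and their part in the Sox21 and Sox15 differences was not tested. The Sox21 locus (XLOC_007785) is on chromosome 14, 118632456 to 118636252.

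Sox13, a SoxD gene whose protein has no activation domain of its own, was lower than in wild-type ESC in both knockout groups, and higher in EpiLC than in Sirt1KO (log2 0.59 ± 0.06, adjusted p = 8.80e-07). It had 10.7, 11.1 and 10.3 FPKM in EpiLC, against 10.6, 11.3 and 11.5 FPKM in wild-type ESC, and these groups overlapped. Their difference of log2 -0.06 ± 0.06 did not pass (adjusted p = 0.4, 95% interval -0.18 to 0.07) and was 0.01 under quantile normalization. Sirt1KO Otx2KD had 8.42, 8.33 and 7.79 FPKM, against 7.11, 6.88 and 6.37 FPKM in Sirt1KO (log2 0.24 ± 0.06, adjusted p = 0.00313). Both lay below wild-type ESC, Sirt1KO Otx2KD by log2 -0.40 ± 0.06 (adjusted p = 5.79e-05) and Sirt1KO by -0.64 ± 0.06 (adjusted p = 3.75e-07). The locus (XLOC_000994) is on chromosome 1, 135278877 to 135321056.

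Sox17, the SoxF gene that drives endoderm formation, did not reach the level needed for testing. It had 0.0628, 0.177 and 0.152 FPKM in EpiLC, 0.231, 0.132 and 0.0940 in Sirt1KO Otx2KD, 0.0645, 0.0565 and 0.175 in Sirt1KO, and 0.270, 0.240 and 0.0998 in wild-type ESC. All groups overlapped, and with values this low its differences were not tested. Its locus (XLOC_000632) is on chromosome 1, 4481009 to 4486494.

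**Figure D2:**
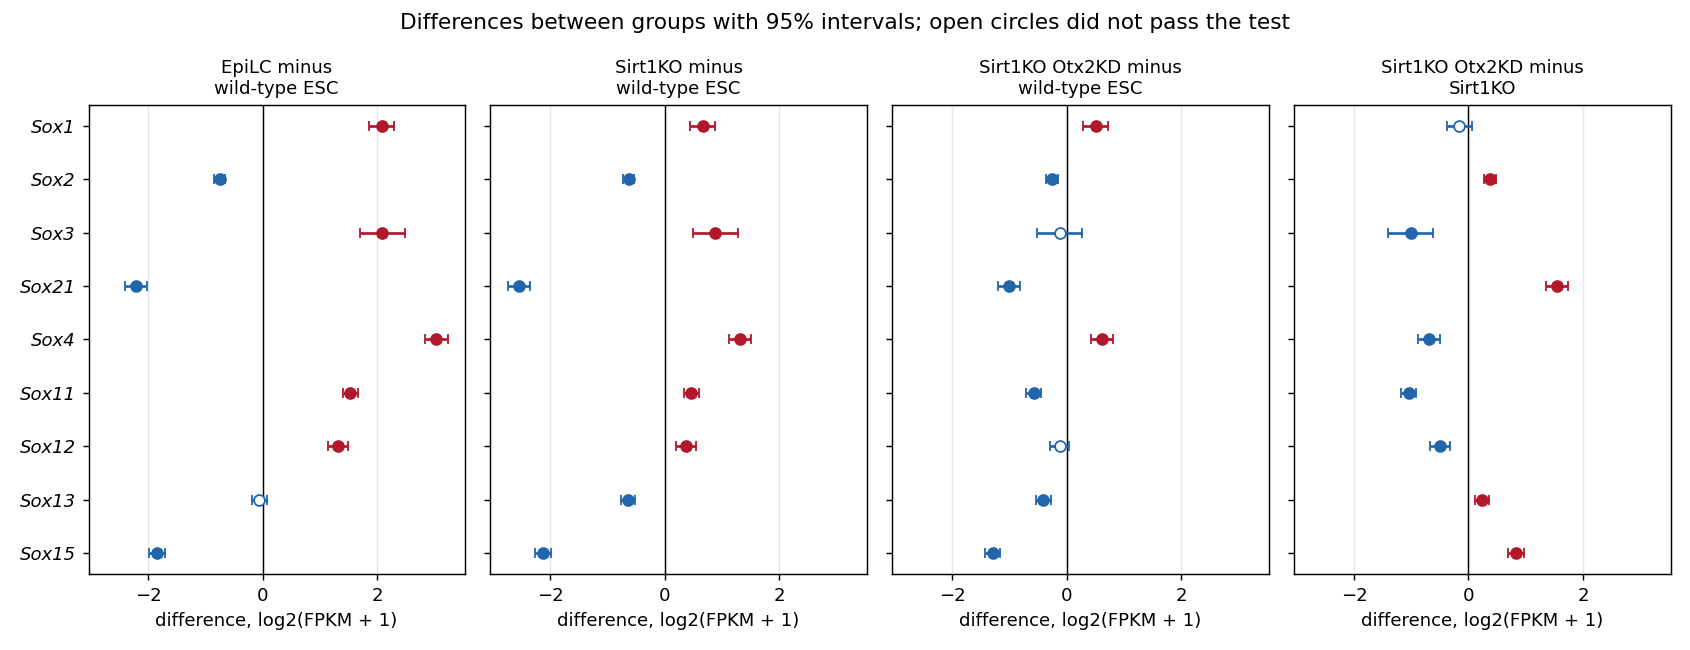
Differences between groups for the 9 tested SOX genes on the log2(FPKM + 1) scale (horizontal axis), with 95% intervals from limma; filled circles passed the test at an adjusted p under 0.05, red is higher and blue lower in the first group named. Sox4, Sox11, Sox12 and Sox3 lie right of 0 in the panels of EpiLC and Sirt1KO against wild-type ESC and left of 0 in the panel of Sirt1KO Otx2KD against Sirt1KO, while Sox2, Sox15 and Sox21 lie on the opposite sides.

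Counted by comparison, Sox1, Sox3, Sox4, Sox11 and Sox12 were higher and Sox2, Sox15 and Sox21 lower in EpiLC than in wild-type ESC. These are 5 and 3 of 9 tested members, where 35.8% of all 12320 tested loci were higher and 38.8% lower, so the share of members that changed (8 of 9, beside 74.6%) is near that of loci in general. For 8 of the 9, no EpiLC library fell in the wild-type range, as for 76.8% of loci. In Sirt1KO, 5 were higher and 4 lower than in wild-type ESC (background 32.4% and 32.7%, 65.0% in all), and 9 of 9 did not overlap (background 68.5%). Sox13 joined the 3 that were also lower in EpiLC. Both comparisons use the same wild-type ESC libraries, so their signs are not independent. In Sirt1KO Otx2KD, 4 members were higher than in Sirt1KO (Sox2, Sox13, Sox15 and Sox21; background 31.1%) and 4 lower (Sox3, Sox4, Sox11 and Sox12; 31.5%), in all 62.6% of loci, and 8 members did not overlap (background 67.2%). Against wild-type ESC, Sirt1KO Otx2KD had 2 higher (Sox1 and Sox4; background 27.1%) and 5 lower (Sox2, Sox11, Sox13, Sox15 and Sox21; 26.8%), in all 53.9% of loci, and 7 did not overlap (background 61.3%). The median log2 difference of the 9 was 1.31 for EpiLC and 0.37 for Sirt1KO against wild-type ESC, -0.16 for Sirt1KO Otx2KD against Sirt1KO and -0.26 for Sirt1KO Otx2KD against wild-type ESC, beside medians between -0.02 and 0.01 over all tested loci.

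The direct comparison of EpiLC with Sirt1KO separates the sizes of the changes. In it 8 of the 9 tested members were higher in EpiLC (background 34.0%) and 1, Sox2, was lower (background 35.1%, 69.1% in all). The 9 did not overlap, as was so for 72.4% of loci. On the log2(FPKM + 1) scale the largest gaps were those of Sox4 (log2 1.72 ± 0.09, adjusted p = 1.22e-09), Sox1 (1.42 ± 0.10, adjusted p = 2.74e-08) and Sox3 (1.21 ± 0.18, adjusted p = 5.43e-05). By ratio of means Sox1 came first, at 4.27-fold, before Sox4 at 3.59-fold and Sox3 at 2.80-fold, and with a pseudocount of 0.1 Sox1 (log2 2.00) also exceeded Sox4 (1.84). Sox11 was 2.20-fold and Sox12 1.99-fold higher in EpiLC by means. Sox15 (log2 0.28 ± 0.06, adjusted p = 0.00148) and Sox21 (0.34 ± 0.09, adjusted p = 0.00457) lay lower in Sirt1KO than in EpiLC. For Sox2 the difference was -0.12 ± 0.05 (adjusted p = 0.0295, 95% interval -0.22 to -0.02), and the libraries nearly met. It did not pass without EpiLC replicate 1 or 3 (adjusted p = 0.118 and 0.0519), without Sirt1KO replicate 2 or 3 (0.0992 and 0.0913), with no filter on low values (0.0961), with median-of-ratios scaling (0.0714) or under quantile normalization (-0.01, adjusted p = 0.924).

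As a whole, the SOX transcripts summed to 258, 274 and 262 FPKM in EpiLC, 269.5, 269.1 and 270.3 FPKM in Sirt1KO Otx2KD and 217, 224 and 221 FPKM in Sirt1KO, against 329, 363 and 362 FPKM in wild-type ESC. Sox2 made up 58.8% ± 0.856 of that sum in EpiLC, 81.4% ± 0.671 in Sirt1KO Otx2KD, 76.8% ± 1.93 in Sirt1KO and 74.8% ± 1.01 in wild-type ESC (SD, n = 3 each). The SoxC genes held 27.8% ± 0.429 in EpiLC, 6.37% ± 0.282 in Sirt1KO Otx2KD, 13.6% ± 1.58 in Sirt1KO and 5.38% ± 0.210 in wild-type ESC. Sox15 alone held 4.71% ± 0.138 in EpiLC, 6.97% ± 0.471 in Sirt1KO Otx2KD and 4.59% ± 0.386 in Sirt1KO, against 13.5% ± 0.625 in wild-type ESC. Sox1 and Sox3 together held 4.09% ± 0.426 in EpiLC and 0.286% ± 0.0274 in wild-type ESC. These shares are descriptions, with no test.

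**Figure D3:**
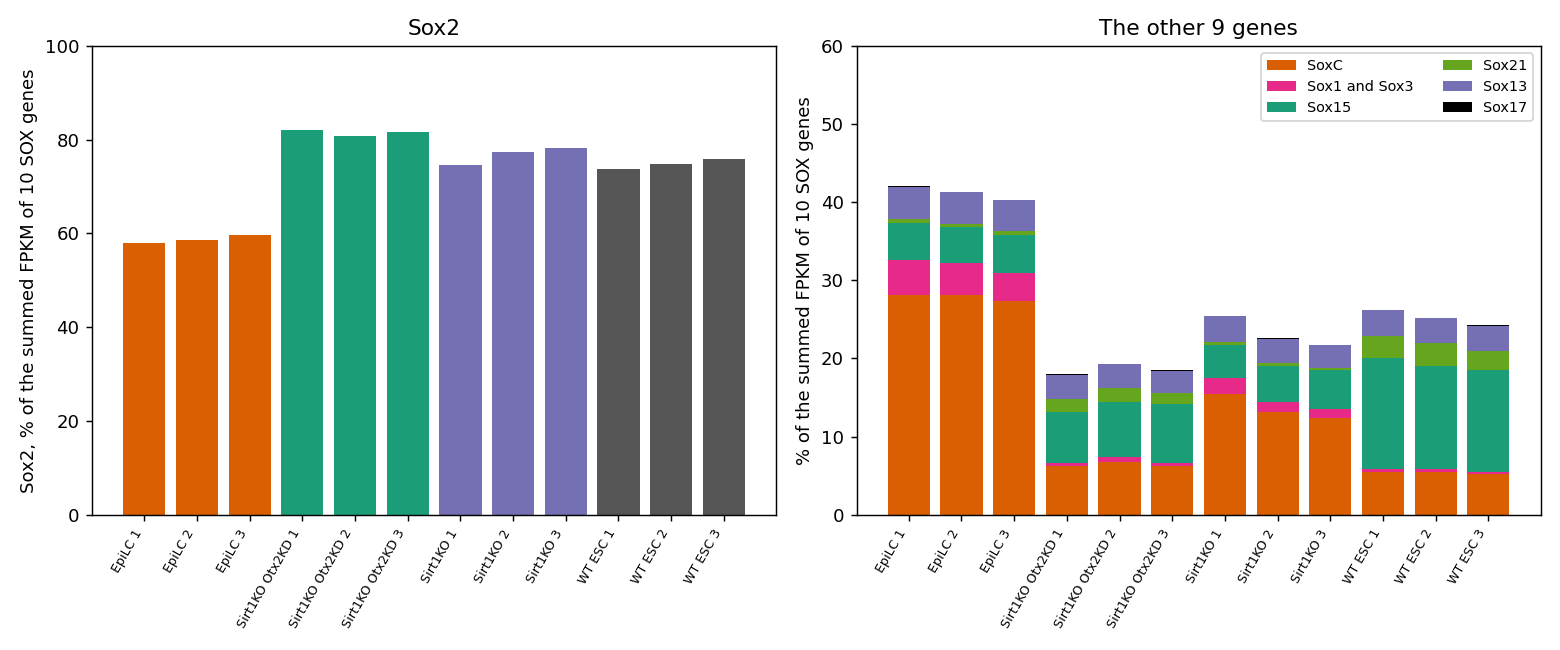
Shares in the summed FPKM of the 10 SOX genes (vertical axes, percent), for Sox2 (left) and stacked for the other genes (right), with libraries along the horizontal axes. Sox4, Sox11 and Sox12 are drawn together as SoxC, and Sox1 and Sox3 are also drawn together. SoxC genes hold 27.4% to 28.1% in EpiLC libraries and 5.14% to 5.52% in wild-type ESC libraries, where Sox15 holds 13.1% to 14.3%.

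The other SOX genes were near the lower limit everywhere. Of 10 (Sox5, Sox6, Sox7, Sox8, Sox9, Sox10, Sox14, Sox18, Sox30 and Sry), 0 passed the filter of 1 FPKM in 3 libraries. The highest single value was 0.973 FPKM, of the vascular SoxF gene Sox18 in an EpiLC library, and Sry was listed at 0 in all 12 libraries. Sox9, a gene of chondrocyte and other progenitors, had 0.186, 0.207 and 0.282 FPKM in EpiLC, 0.229, 0.490 and 0.349 FPKM in Sirt1KO Otx2KD, 0.0479, 0.0419 and 0.0216 FPKM in Sirt1KO, and 0.150, 0.127 and 0.0247 FPKM in wild-type ESC. It was highest in Sirt1KO Otx2KD and lowest in Sirt1KO by mean, as the fibroblast and feeder markers were, and their part was not tested.

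Genes with known Oct4-Sox2 elements did not move as a block. Of 7, 1 rose and 4 fell in EpiLC against wild-type ESC, beside 35.8% and 38.8% of all tested loci. In Sirt1KO, 3 rose and 3 fell against wild-type ESC (background 32.4% and 32.7%). In Sirt1KO Otx2KD, 4 were higher and 2 lower than in Sirt1KO (background 31.1% and 31.5%). Pou5f1 itself averaged 604 ± 18.3 FPKM in EpiLC, 637 ± 24.2 FPKM in Sirt1KO Otx2KD, 660.2 ± 8.56 FPKM in Sirt1KO and 610.5 ± 15.1 FPKM in wild-type ESC, and passed in Sirt1KO against wild-type ESC (log2 0.11 ± 0.03, adjusted p = 0.00682). Utf1, a chromatin-associated gene of pluripotent cells, rose in EpiLC, with 411.6 ± 24.2 FPKM in EpiLC and 36.8 ± 3.02 FPKM in wild-type ESC. Nanog, the homeobox pluripotency factor (a locus merged with Nanogpd), averaged 96.9 ± 6.61 FPKM in EpiLC and 388 ± 38.0 FPKM in Sirt1KO, against 542 ± 12.5 FPKM in wild-type ESC. Fbxo15, an F-box gene of undifferentiated cells, averaged 41.1 ± 1.54 FPKM in EpiLC and 160.3 ± 3.01 FPKM in wild-type ESC. Fgf4, the growth factor gene with the best known Sox2 enhancer, averaged 225 ± 4.79 FPKM in Sirt1KO Otx2KD and 149 ± 11.2 FPKM in Sirt1KO. Lefty1, a Nodal inhibitor, averaged 12.3 ± 0.434 FPKM in Sirt1KO Otx2KD, against 37.5 ± 2.86 FPKM in Sirt1KO (log2 -1.53 ± 0.06, adjusted p = 1.42e-10). The list's median log2 difference against wild-type ESC was -0.31 for EpiLC and 0.0003 for Sirt1KO, and that of Sirt1KO Otx2KD against Sirt1KO was 0.36.

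Neural progenitor genes split in EpiLC, where Sox1 and Sox3 rose, and mostly fell in Sirt1KO. Of 15, 8 were tested. In EpiLC 4 rose and 3 fell, beside 35.8% and 38.8% of all tested loci, while 1 rose and 7 fell in Sirt1KO (background 32.4% and 32.7%). Nes, the gene of the intermediate filament nestin, averaged 5.92 ± 0.397 FPKM in EpiLC and 13.9 ± 0.872 FPKM in wild-type ESC. Neurog1, a proneural factor, averaged 0.186 ± 0.0535 FPKM in EpiLC and 0.982 ± 0.235 FPKM in Sirt1KO, against 33.1 ± 1.99 FPKM in wild-type ESC. In Sirt1KO Otx2KD, 4 of these genes were higher and 1 lower than in Sirt1KO (background 31.1% and 31.5%). Among the 4, Neurog1 averaged 6.96 ± 1.03 FPKM in Sirt1KO Otx2KD. Pax6 was higher there than in Sirt1KO by log2 0.74, Nes by 0.49 and Zic2 by 0.22. The 1 lower gene was the oligodendrocyte lineage factor Olig2, with 12.4 ± 0.698 FPKM in Sirt1KO Otx2KD and 25.9 ± 0.563 FPKM in Sirt1KO. Olig2 was also the 1 gene that rose in Sirt1KO against wild-type ESC (log2 0.85). In Sirt1KO Otx2KD its log2 difference from wild-type ESC was -0.16. Median log2 differences against wild-type ESC were 0.10 for EpiLC and -0.56 for Sirt1KO, and Sirt1KO Otx2KD had 0.17 against Sirt1KO.

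Endoderm genes were set beside Sox17. Of 16, 10 were tested, and 5 rose and 4 fell both in EpiLC and in Sirt1KO against wild-type ESC, with medians of log2 0.33 for EpiLC and 0.06 for Sirt1KO. In EpiLC the number that fell was 3 under most alternatives. Of all tested loci, 35.8% rose and 38.8% fell in EpiLC, and 32.4% rose and 32.7% fell in Sirt1KO. Of the endoderm genes, 7 were higher and 1 lower in Sirt1KO Otx2KD than in Sirt1KO (median 0.42, background 31.1% and 31.5%). The organizer gene Gsc averaged 0.196 ± 0.108 FPKM in EpiLC and 3.06 ± 0.214 FPKM in Sirt1KO, against 12.6 ± 0.996 FPKM in wild-type ESC. Laminin beta 1, Lamb1, averaged 34.7 ± 0.764 FPKM in EpiLC and 15.1 ± 0.203 FPKM in wild-type ESC. Lama1, another laminin gene, went the other way in EpiLC, with 0.732 ± 0.101 FPKM in EpiLC and 6.57 ± 0.333 FPKM in Sirt1KO, against 3.24 ± 0.193 FPKM in wild-type ESC, and it was higher in Sirt1KO. Several of these genes, among them laminins and collagens, are also made by fibroblasts. Of the fibroblast markers, 11 of 11 were higher in Sirt1KO Otx2KD than in Sirt1KO (background 31.1%). In Sirt1KO, 11 of 11 were lower than in wild-type ESC (background 32.7%). The part of these markers in the counts was not tested. Cer1, a secreted antagonist from anterior visceral endoderm, was listed at 0 in every library.

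Some other genes followed a SOX gene closely over the 12 libraries, which share their groups, so a high correlation reflects few independent points. Sox4 was most like Efnb2, an ephrin ligand gene (Pearson r = 0.997 of log2 values over 12 libraries), with 19.8 FPKM in EpiLC, 2.39 in Sirt1KO Otx2KD, 4.62 in Sirt1KO and 1.25 in wild-type ESC. Sox3 was most like the bHLH factor Neurod1 (r = 0.992), which also had its highest Sirt1KO value in replicate 1 (6.22, 4.40 and 3.84 FPKM). Sox11 was most like Calca, the calcitonin gene (r = 0.995), with means of 59.9 FPKM in EpiLC, 3.88 in Sirt1KO Otx2KD, 15.9 in Sirt1KO and 9.69 in wild-type ESC. Sox12 was most like Gm98 (r = 0.997) and Sox2 like Dlgap3, a synaptic scaffold gene (r = 0.989). Sox21 was closest to the transcription factor gene Nfe2l1 (r = 0.995) and Sox15 to Mtfp1, a mitochondrial fission gene (r = 0.994), both of which lie on chromosome 11. Sox1 was closest to the RNA-binding protein gene Khdrbs1 (r = 0.995) and Sox13 to Pwwp2a (r = 0.988).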

How the data were processed

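The authors' deposited values are FPKM per locus, 1 file per library. Per the submitters' processing notes, TopHat, Cufflinks and Cuffdiff were used with mm9; versions, annotation, strand setting and library scaling are not given in the sources used here. Each file held 27914 loci, of which 4778 have no gene name and were left out. Groups came from sample titles. A named locus was tested when 3 or more of the 12 libraries reached 1 FPKM (12320 loci, 9 of 10 members). In limma 3.58.1 (R 4.3.3), each group had its own mean of log2(FPKM + 1), with trend and robust settings and 8 residual degrees of freedom. P-values were Benjamini-Hochberg adjusted over all tested loci, threshold 0.05, in 5 comparisons; the fit was tested on simulated data. File starts count from 0, so 1 was added. Relative depth is the most frequent ratio of values under 0.1 FPKM. Members and lists were chosen with earlier results of these data known. Named genes are all members, Sirt1, Otx2, up to 3 called genes of each list and comparison by largest t, and the closest genes by Pearson r with a mean FPKM of at least 5; Pou5f1, Fgf5, Sox9, Cer1, Sox18 and Mpdu1 and the overlapping loci were named after their values were seen. A gene that this rule names is not reported here. Promoter windows are from RefSeq. Alternatives were another pseudocount, no filter, 2 normalizations, chromosome medians removed, only the 2 groups, a replicate block and leaving out each library.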

Additional observations from a re-analysis of the deposited data

How the results depend on the processing

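Over 585 alternative values of the 9 tested members in 5 comparisons, 573 kept both direction and side of the threshold, 9 lost the call, 1 gained it and 2 changed sign. Both sign changes were in values that had not passed: Sox13 in EpiLC against wild-type ESC (0.0115 under quantile normalization), and Sox3 in Sirt1KO Otx2KD against wild-type ESC (between -0.21 and 0.0053 with a library left out, the highest without Sirt1KO Otx2KD replicate 1). Members lower in EpiLC than in Sirt1KO, which is Sox2 alone, numbered 0 with no filter on low values, 0 under quantile normalization, 0 with median-of-ratios scaling and between 0 and 1 with a library left out. Members higher in Sirt1KO Otx2KD than in wild-type ESC numbered 1 with chromosome medians removed, where Sox1 no longer passed. Counts over all tested loci stayed between 0.902 and 1.13 times their values. Deviations of same-numbered libraries correlated between -0.11 and 0.17, above 0.1 in 2 of 15 pairs. Those 2 pairs were replicates 2 and 3 of EpiLC and wild-type ESC. Libraries with different numbers were not compared in this way, so whether the replicate numbers pair the libraries was not tested. With the replicate block, the counts of members were the same in each comparison (5 higher and 3 lower in EpiLC than in wild-type ESC). Of the gene lists, Oct4-Sox2 targets higher in EpiLC than in wild-type ESC numbered 3 under quantile normalization and 2 with chromosome medians removed. Neural progenitor genes lower in EpiLC numbered 5, of 15 tested, with no filter. Those lower in Sirt1KO Otx2KD than in Sirt1KO numbered 2 under quantile normalization and 2 without Sirt1KO replicate 3. Those higher there numbered 3 with only the 2 groups, without Sirt1KO replicate 2 and without Sirt1KO Otx2KD replicate 2 or 3. Endoderm genes lower in EpiLC numbered between 3 and 5, and those lower in Sirt1KO than in wild-type ESC 6, of 16 tested, with no filter. Fibroblast markers lower in Sirt1KO than in wild-type ESC numbered 10 of 11 with no filter. The same number was lower without wild-type ESC replicate 2 or 3 and without Sirt1KO replicate 2 or 3. With no filter, the 10 other SOX genes were tested too, and 2 were higher and 0 lower in EpiLC than in wild-type ESC. In Sirt1KO, 0 were higher and 1 lower than in wild-type ESC. In Sirt1KO Otx2KD, 3 were higher and 0 lower than in Sirt1KO, and 3 higher and 1 lower than in wild-type ESC. The share of all loci under this setting is not given here. Differences of genes under 1 FPKM, Sox17 among them, are limited by depth.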
